A study of Mus musculus with 4 samples.

Results

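Odc1 and the other genes of polyamine metabolism were followed in mouse bone marrow cells that had been cultured in flight or on the ground. The members were 10 genes: Odc1, Amd1, Srm and Sms of synthesis, Oaz1, Oaz2 and Azin1 of the antizyme system, and Sat1, Smox and Paox of catabolism. A probe set, the group of short oligonucleotides on the array that reports on a transcript, was taken when the platform annotation gave it the symbol of a member. Of 45037 probe sets that are not controls, 14 carried the symbol of a member alone and represented 7 genes. A further 4 carried a member's symbol together with that of a pseudogene, 3 for Sms with Sms-ps and 1 for Oaz1 with Oaz1-ps, and are given by that joint annotation. Levels of Amd1 and Paox were not analysed here. The members were chosen with the space flight against ground control result of Odc1 known. Differences between those groups are therefore given as descriptions, and no p-value is printed for a member. Where members passing a threshold are named or counted below, nothing is read from it.

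The arrays came from cells of C57BL/6 mice older than 8 weeks, whose marrow was combined from 21 animals and freed of red cells by lysis. The cells grew at 37 °C in sealed glass barrels with 1.5 µg/ml recombinant mouse macrophage colony-stimulating factor (M-CSF), which drives marrow progenitors towards macrophages, with medium added on culture day 6. Space flight cultures were carried on a space shuttle, and ground control cultures were held on the same temperature profile, also with M-CSF. Both were lysed in guanidinium on culture day 15, flight day 14, and RNA of 2 barrels made up each of the 2 arrays per group. All cultures thus share 1 pool of marrow, and neither the SD nor the standard errors below hold any spread of animals. The SD holds the spread of cultures and arrays, and the standard errors also borrow from other probe sets, as described below.

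Polyamines are small positively charged molecules that bind nucleic acids and are needed for growth and translation. Ornithine decarboxylase, the product of Odc1, makes putrescine from ornithine, and spermidine synthase (Srm) and spermine synthase (Sms) extend it with aminopropyl groups supplied through S-adenosylmethionine decarboxylase (Amd1). When polyamines are abundant a ribosomal frameshift yields antizyme (Oaz1, Oaz2), which binds ornithine decarboxylase and sends it to the proteasome, while the antizyme inhibitor Azin1 takes up antizyme. Acetylation by Sat1 and oxidation by Smox and Paox run the pathway backwards. In macrophages, ornithine from arginase feeds this pathway.

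The upstream promoter sequence of Odc1 is shown because this gene had the largest difference among the members, with that of Oaz1, its antizyme, for contrast. Both are the 250 bases before the transcript start on the plus strand, from RefSeq on build GRCm38.p6, at chr12:17544623-17544872 for Odc1 and chr10:80826406-80826655 for Oaz1, and capitals mark matches to the motifs named after them.
Odc1: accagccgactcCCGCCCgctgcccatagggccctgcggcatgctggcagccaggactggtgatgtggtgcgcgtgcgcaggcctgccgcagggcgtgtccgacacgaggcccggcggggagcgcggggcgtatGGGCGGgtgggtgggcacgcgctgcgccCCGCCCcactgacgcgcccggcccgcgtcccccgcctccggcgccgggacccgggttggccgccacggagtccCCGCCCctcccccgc
Oaz1: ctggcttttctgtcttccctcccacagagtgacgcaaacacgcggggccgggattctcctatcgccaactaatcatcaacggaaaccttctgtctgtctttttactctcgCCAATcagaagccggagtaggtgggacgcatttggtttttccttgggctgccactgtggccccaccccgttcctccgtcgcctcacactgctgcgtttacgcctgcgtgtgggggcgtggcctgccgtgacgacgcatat

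On both strands a search was made for the E-box bound by Myc and Max, with the letters CACGTG. The GC box was searched as GGGCGG, the TATA box as TATAAA, and the CCAAT box by the letters of its name. In the Odc1 window the GC box matched 4 times, and the letters of the E-box, TATA box and CCAAT box were not in it. In the Oaz1 window the CCAAT box matched in 1 place and the other motifs did not. Of the 32851 promoter windows of the same length in RefSeq, 32.7% held the GC box, 33.8% the CCAAT box, 12.4% the TATA box and 6.02% the E-box. Over the 10 windows of the 8 members found there, Amd1 and Paox included, 8 held the GC box, 2 the CCAAT box, 1 (of Sms) the E-box and 0 the TATA box. The Paox windows overlap and share a GC box match, so part of that sequence is counted more than once. No window was found for Srm or Azin1. G and C made up 80.0% of the Odc1 window and 58.0% of the Oaz1 window, against a median of 52.4% over all windows. A match is only a match of letters. Bases outside these windows, within the gene or farther upstream, were not searched, so a motif absent here may lie elsewhere.

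The RNA was degraded in all samples (integrity number of 3 per the labels), and the control ratios of the flight arrays differed, not all in 1 direction. For the Gapdh control, 3' over 5' signal came to 4.09 on flight array 1 and 15.2 on flight array 2, and to 4.13 and 3.33 on the ground arrays. For Actb it was 3.08 and 4.91 in space flight, against 2.30 and 2.84 in ground control, and for Tfrc 5.50 and 3.47 in space flight, against 4.96 and 7.84 in ground control. For all 45037 probe sets, the SD of the difference between the arrays of a group was 0.94 in space flight and 0.73 in ground control on the log2 scale. All 9 macrophage markers listed, Csf1r and Cd68 among them, were bright enough to be measured on these arrays. Levels given below without a unit are quantile normalized log2(intensity + 16) values. A difference is the space flight mean minus the ground control mean on that scale. Its standard error comes from limma's fit over all probe sets (SE, n = 2 arrays per group). That SE is moderated, drawn towards the spread of probe sets of similar brightness (8.55 total degrees of freedom, 2 of them residual). Where the arrays of a probe set disagree it can thus be smaller than they alone would give, and larger where they lie close.

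Odc1 stood 2.90-fold higher in the cultures lysed in flight on its brightest probe set, and its other probe sets stood 3.31-fold and 2.50-fold higher. On the deposited intensity scale, probe set 1437711_x_at read 12294 on flight array 1 and 13016 on flight array 2, against 4180 and 4399 on the ground arrays. Here and below, the value of array 1 of a group stands before that of array 2. Normalized, it read 13.65 and 13.53 in space flight and 12.03 and 12.08 in ground control, a difference of 1.54 ± 0.18 (SE). The flight arrays lay close together here and far above the ground arrays. Its suffix x marks a class of probe sets that may bind transcripts of other genes too.

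The second probe set, 1438761_a_at, had intensities of 15228 and 9760 in space flight, against 3761 and 3627 in ground control. Its normalized values were 13.97 and 13.17 in space flight and 11.87 and 11.81 in ground control, with a difference of 1.73 ± 0.26 (SE). The third and dimmest, 1427364_a_at, had intensities of 1828 and 941 in space flight, against 552 and 509 in ground control, and a difference of 1.32 ± 0.33 (SE). On all 3 probe sets both flight arrays lay above both ground arrays. The flight arrays differed from each other by 0.13 on the brightest probe set, but by 0.80 and 0.86 on the other 2, with array 1 the higher each time. Ground control arrays differed by at most 0.061 on each. The SD of 0.089 between flight arrays on the brightest probe set was thus smaller than the SD of 0.57 and 0.61 on the others.

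**Figure D1:**
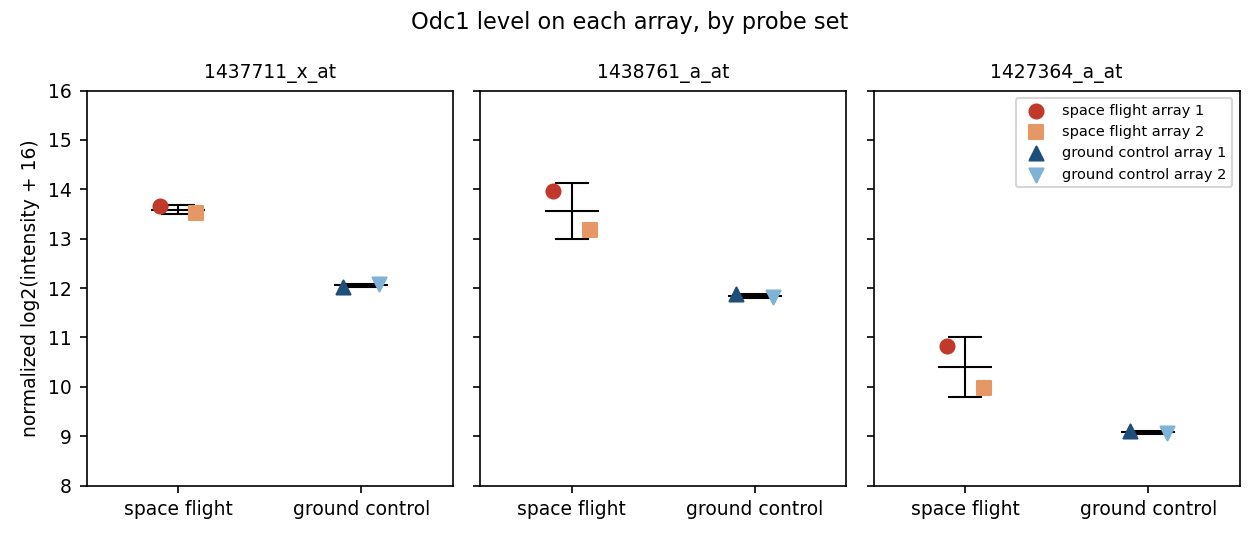
Odc1 on each array, one panel per probe set. The y axis is the normalized log2(intensity + 16), space flight is left and ground control right, points are arrays, and bars are the mean and SD of 2 arrays. The flight arrays lie above the ground arrays in every panel and spread widely on the 2 probe sets with the suffix a, where array 1 is 0.80 and 0.86 above array 2.

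Set against the ground control mean, flight array 1 gave 1.60, 2.13 and 1.75 on the 3 Odc1 probe sets in this order, and flight array 2 gave 1.47, 1.33 and 0.89. Among 11141 measured genes (each taken at its brightest probe set with 1 symbol, with a mean of at least 6.40), the Odc1 difference was the 94th highest. This rank describes the values by which Odc1 was chosen.

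Spermidine synthase and spermine synthase, which act after Odc1, stood much closer to their ground levels. Srm, on its 1 probe set, had intensities of 1592 and 2610 in space flight, against 1586 and 2040 in ground control. The groups overlapped, the difference was 0.22 ± 0.30 (SE), and flight array 2 was the high one. Without flight array 1 the difference was 0.62, and without flight array 2 it was −0.17.

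The 3 probe sets annotated to Sms with Sms-ps gave differences of 0.54 ± 0.28, 0.36 ± 0.35 and 0.62 ± 0.63 (SE), from the brightest to the dimmest. The brightest, 1421052_a_at, had intensities of 2061 and 1232 in space flight, against 1190 and 1071 in ground control. Flight array 1 stood 0.86 above the ground mean and flight array 2 stood 0.22 above it, so the groups did not overlap but array 1 carried most of the difference. On 1434190_at the groups overlapped, with 10.67 and 9.69 in space flight and 10.00 and 9.64 in ground control. The dimmest, 1428699_at, had a mean of 5.90, below the limit of 6.40 used for measured genes.

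The antizymes, which bring ornithine decarboxylase down, had smaller differences than Odc1. Oaz1 was bright on its probe set with 1 symbol, 1436292_a_at, with intensities of 34103 and 53326 in space flight, against 30874 and 30819 in ground control. The high value of flight array 2 went with that array's long upper tail, with a highest intensity of 98455, against 52570 on flight array 1 and 56582 and 64413 on the ground arrays. After quantile normalization the Oaz1 values were 15.28 and 15.21 in space flight and 15.10 and 15.00 in ground control, a difference of 0.19 ± 0.16 (SE), and with values as deposited the difference was 0.47. The probe set annotated to Oaz1 with Oaz1-ps had intensities of 15928 and 15874 in space flight, against 10203 and 11242 in ground control, and a difference of 0.47 ± 0.18 (SE). The flight arrays lay above the ground arrays on both probe sets.

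The 3 probe sets of Oaz2, the second antizyme gene, disagreed in direction. The brightest, 1426763_at, had intensities of 2284 and 1402 in space flight, against 1598 and 1754 in ground control, with the flight values on either side of the ground values and a difference of 0.15 ± 0.27 (SE). Probe set 1426764_at had 488 and 287 in space flight, against 263 and 257 in ground control, and a difference of 0.48 ± 0.39 (SE) that was 0.13 without flight array 1. The dim 1442541_at ran the other way, with 65.8 and 95.5 in space flight, against 139 and 163 in ground control, and a difference of −0.95 ± 0.54 (SE). No direction can be given for Oaz2 from these probe sets.

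Azin1, the antizyme inhibitor, stayed near its ground level on its bright probe sets. The brightest, 1450714_at, had intensities of 5392 and 5467 in space flight, against 5134 and 4947 in ground control, and a difference of 0.12 ± 0.19 (SE). The flight arrays were both just above the ground arrays. Probe set 1422702_at had 3662 and 3112 in space flight, against 4243 and 3577 in ground control, and a difference of −0.17 ± 0.21 (SE) with overlapping groups. The third, 1430984_at, had a mean of 6.28, below the limit for measured genes, and a difference of 0.28 ± 0.62 (SE).

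The catabolic genes Sat1 and Smox stood higher on flight array 1 and close to ground on flight array 2. Sat1, the spermidine and spermine acetyltransferase, had intensities of 9408 and 6184 in space flight, against 6009 and 5669 in ground control. Normalized, flight array 1 lay 0.75 above the ground mean and flight array 2 lay 0.06 above it, for a difference of 0.40 ± 0.25 (SE), and the groups overlapped. Smox, the spermine oxidase, had 5600 and 3733 in space flight, against 3999 and 2975 in ground control, on its brighter probe set 1424268_at. Its flight arrays lay 0.71 and 0.16 above the ground mean, for a difference of 0.44 ± 0.25 (SE), and these groups overlapped too.

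The other Smox probe set, 1446509_at, was set by the spread within groups. It read 349 and 176 in space flight, against 701 and 169 in ground control, and its difference was −0.52 ± 0.62 (SE). The ground arrays alone were 1.83 apart on it. With the mean over both probe sets Smox stood at −0.04.

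**Figure D2:**
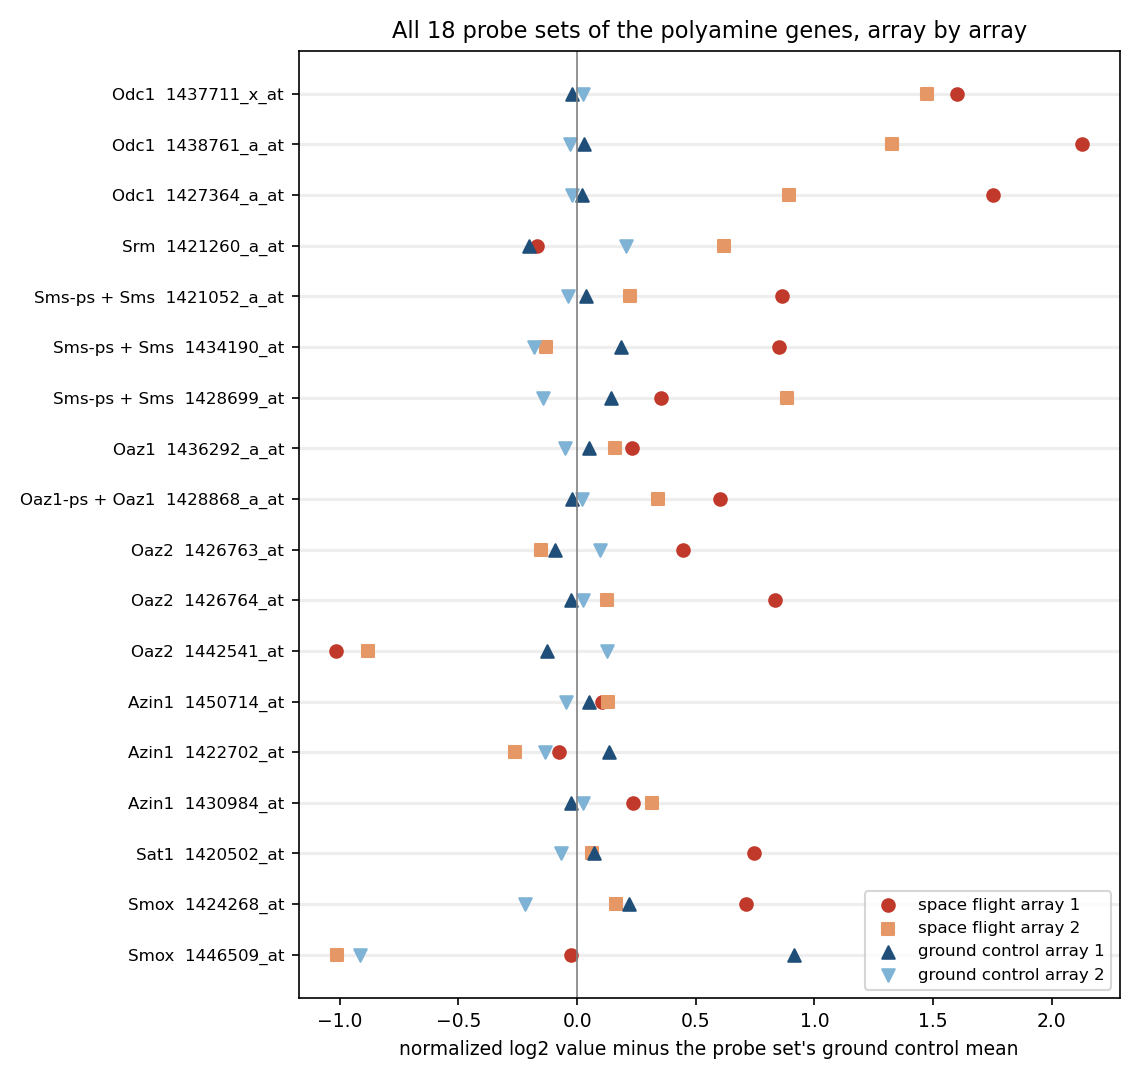
Every probe set of the members on every array. The x axis is the normalized log2 value minus the mean of the ground control arrays for that probe set, circles and squares are space flight arrays 1 and 2, and triangles are ground control arrays 1 and 2. On the 3 Odc1 rows each flight array lies at 0.89 or more. Flight array 2 of the dimmest Sms row lies at 0.89 too. Ground control array 1 of the dimmer Smox row lies to the right of the lowest Odc1 flight point. On Sat1 and the brighter Smox row flight array 1 alone is high, at 0.75 and 0.71.

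Over all 18 probe sets, 15 differences were above 0 and 3 below, with a median of 0.38, where the median over all 45037 probe sets was 0.0048 and 50.3% were above 0. The flight arrays lay above the ground arrays on 10 of the 18 and below them on 1. Of all probe sets, 19.1% lay above and 19.4% below in this way. Without Odc1, the differences of the other 15 ran from −0.95 to 0.62, with 7 above, 1 below and 7 overlapping. On 9 of these 15 the flight arrays differed from each other by more than the groups did. That held on none of the 3 Odc1 probe sets, but Odc1 was chosen with its large difference known, so nothing is read from this. Flight array 1 was the higher flight array on 13 of the 18, by over 0.5 on 9 of them. The shares of all probe sets on which the flight arrays differ in these ways are not given here. The arrays also differed in the control ratios given above, and the part of RNA quality in these differences was not tested.

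In limma's fit over the 11141 measured genes, 7 genes (0.0628%) passed an adjusted p of 0.05, and of the 7 members in that fit 1, Odc1, was among them. In the fit over all 45037 probe sets 0 passed (0%), 0 of the 18 among them, whereas 3936 (8.74%) had an unadjusted p under 0.05, with 4 of the 18 among them. Because the members were chosen on this contrast, nothing is read from these counts. Other settings of the gene fit reuse the same arrays, so nothing is read from calls of Odc1 under them either. Odc1 was called with values as deposited, cyclic loess, a pseudocount of 1 or 64, and the replicate block. Those settings called 16, 21, 7, 12 and 433 genes. Odc1 was not called with arrays shifted to 1 median, without the intensity trend, without the filter on dim genes, or with the mean of a gene's probe sets. Under each of these 4 settings 0 genes were called.

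**Figure D3:**
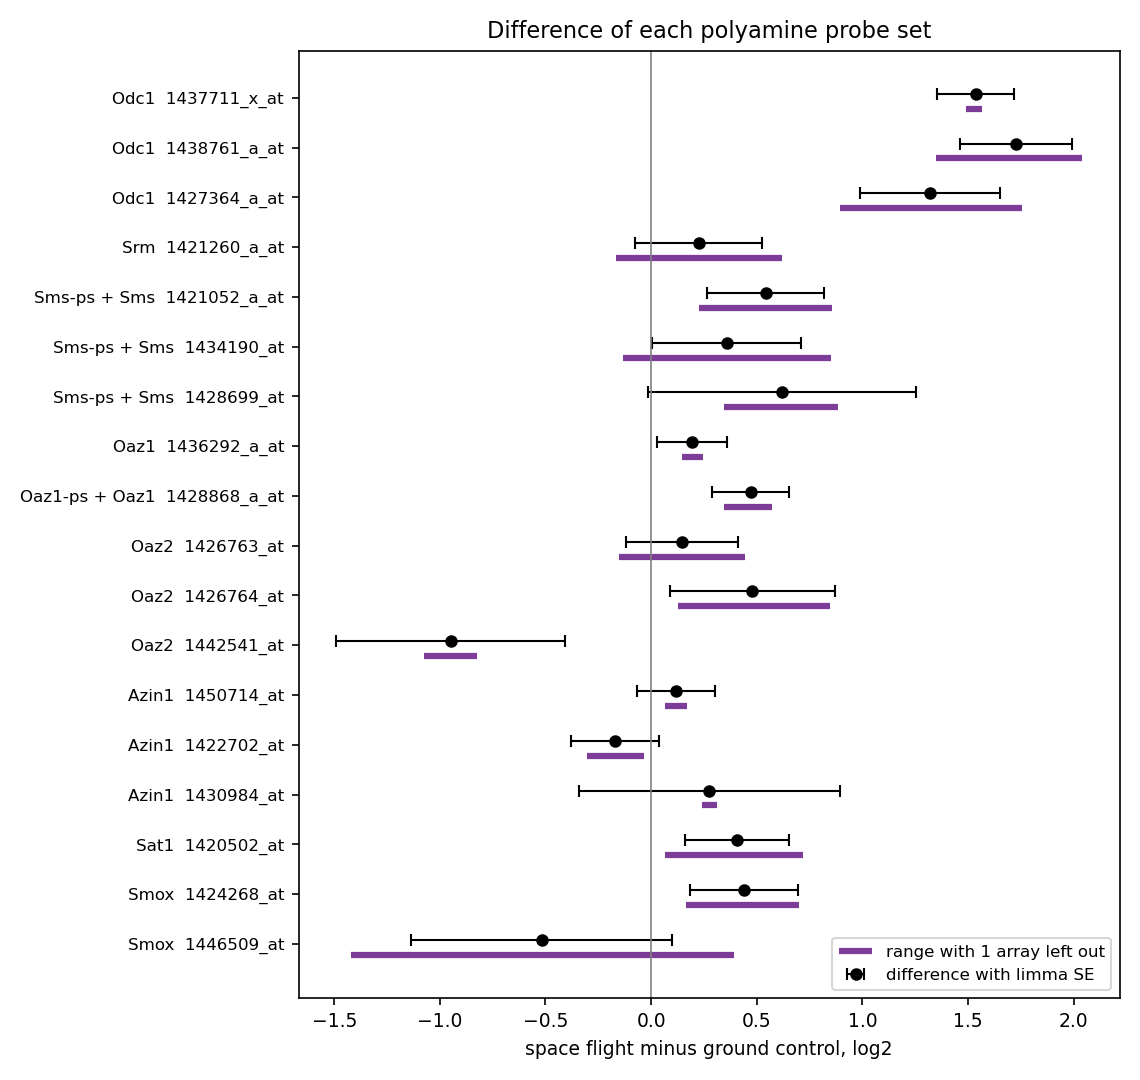
Difference of each probe set, space flight minus ground control on the log2 scale. Points are the differences with limma's SE, and the bars below them span the 4 fits that each leave out 1 array. The Odc1 bars run from 1.49 to 1.57, 1.35 to 2.04 and 0.89 to 1.75, and those of Srm, the second Sms row, the brightest Oaz2 probe set and the dimmer Smox probe set cross 0.

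Leaving out 1 array moved the members unequally. For the brightest Odc1 probe set the difference ran from 1.49 to 1.57, for 1438761_a_at from 1.35 without flight array 1 to 2.04, and for 1427364_a_at from 0.89 without flight array 1 to 1.75. Sat1 stood at 0.06 without flight array 1 and 0.72 without flight array 2, and Smox on its brighter probe set stood at 0.17 and 0.70. For the brightest Sms and Sms-ps probe set these values were 0.23 and 0.86. The brightest Oaz2 probe set stood at −0.15 without flight array 1.

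Markers of other cells moved with the groups as well. The 16 neutrophil markers listed, 13 of them measured and S100a8 the brightest, summed over the 14 with a probe set to a normalized intensity of 92010 and 122000 in space flight, against 52440 and 54740 in ground control, and 2 of them (Camp and Ngp) passed limma's test. The 11 erythroid markers, 7 of them measured and Slc4a1 the brightest, summed over the 9 with a probe set to 6705 and 12350 in space flight, against 1616 and 3349 in ground control. The 9 macrophage markers, Lyz2 the brightest, summed to 114000 and 106100 in space flight, against 130400 and 133200 in ground control. Both flight arrays lay above both ground arrays in the neutrophil and erythroid sums and below them in the macrophage sum. Such sums rest mostly on the brightest genes, and the Slc4a1 probe set has the suffix x. Differences were above 0 for 12 of the 13 measured neutrophil markers, 6 of the 7 erythroid and 3 of the 9 macrophage ones. Mmp8 (−0.64), Epor (−0.34), Fcgr1 (1.02), Mertk (0.33) and Cd14 (0.13) ran against their lists. As mean log2 against the ground mean, macrophage markers stood at −0.36 and −0.16 in space flight and −0.11 and 0.11 in ground control. Cxcr2, Epb42 and Rhag were below the limit for measured genes, and Ly6g, Retnlg and Hbb-b1 had no probe set with 1 symbol in the annotation used. In RNA of whole cultures, fewer cells of a type and less RNA per cell cannot be told apart, and the part of cell makeup in the Odc1 difference was not tested.

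The lists of rarer cells rested on few measured genes. Means of flight and ground arrays are given below against the ground mean, over measured genes only. Of 5 cycling cell markers 3 were measured (Mki67 the brightest), at −0.36 and 0.83 in space flight, against 0.03 and −0.03 in ground control. Mcpt8, the 1 measured of 5 mast cell and basophil markers, stood at 0.97 and 1.70, against 0.43 and −0.43. Nkg7, the 1 measured of 7 T and NK cell markers, stood at 0.34 and 1.48, against 0.51 and −0.51. Itgax, the 1 measured of 5 dendritic cell markers, stood at −1.18 and −0.34, against −0.40 and 0.40. The 2 measured of 7 B cell markers (brightest Cd79a) stood at 1.24 and −0.08, against −0.26 and 0.26. All 5 of megakaryocytes and platelets (Pf4) stood at 0.39 and 0.52, against −0.17 and 0.17. Stromal markers, 3 of 5 measured (Pdgfra), stood at −1.07 and −0.39, against −0.10 and 0.10. Both progenitor markers (Kit) stood at 0.44 and −0.17, against 0.44 and −0.44. Flight and ground arrays thus overlapped for cycling, T and NK, dendritic, B cell and progenitor markers. With the markers below the limit counted in, mast cell and basophil markers gave −0.58 and 0.92 on the flight arrays. Those of T and NK cells gave −0.14 and 0.47, so flight array 1 changed sign in both lists. B cell markers gave 0.64 and 0.12, so flight array 2 changed sign there. Dendritic cell markers gave −0.090 and −0.085, far closer to the ground mean than Itgax alone. The remaining lists kept their signs on both flight arrays.

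The genes whose values on the 4 arrays lay nearest to those of Odc1 were chosen by the root mean square difference after each gene's ground mean was subtracted. They were Nid1 (distance 0.035), a basement membrane gene, Hao1 (0.080), an oxidase known from liver, the phosphatase gene Ptp4a3 (0.086), Lamtor4 (0.12), a part of the lysosomal Ragulator complex, and Elovl7 (0.12), a fatty acid elongase. Lamtor4 read 10.99 and 10.88 in space flight and 9.16 and 9.49 in ground control. Nid1 read 7.80 and 7.62 in space flight and 6.12 and 6.14 in ground control, and its ground values lay below the limit of 6.40, as did those of Hao1 and Elovl7. With 4 arrays such likeness is a description only, and none of the 5 passed limma's test (adjusted p from 0.0657 to 0.212).

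The wider pathway was read from 41 further genes of polyamine supply, use, transport and regulation, of which 27 were measured. Of these, 0 rose and 0 fell at an adjusted p of 0.05 in limma's test, where 0.0449% of measured genes rose and 0.018% fell. Unadjusted, 3 were higher and 1 was lower at a p under 0.05, where 14.2% of measured genes passed in either direction. Both flight values lay above both ground values for 5 of the 27 and below them for 9, where 23% and 22.5% of measured genes did so. Their median difference was −0.07, against 0.015 over all measured genes. The SE of the genes in the next paragraphs is that of the gene fit, moderated in the same way over the measured genes (10.4 total degrees of freedom).

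Of the enzymes that build hypusine, the modified lysine of the translation factor Eif5a, from spermidine, Dohh had 10.72 and 10.78 in space flight and 9.58 and 9.70 in ground control. Its groups did not overlap, and the difference of 1.11 ± 0.27 (SE) did not pass (limma adjusted p = 0.122), while a dimmer probe set gave 0.72. Dhps, which acts before Dohh, stood at 0.32 ± 0.27 and its other probe set at −0.38. Eif5a itself stood at 0.20 ± 0.17 and its dimmer probe set at 0.69, and Eif5a2 at −0.59 ± 0.37.

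Among regulators, Max, the partner of Myc in binding E-boxes, had 8.91 and 8.75 in space flight and 6.15 and 7.59 in ground control, and the difference of 1.96 ± 0.49 (SE) did not pass (limma adjusted p = 0.124). The ground arrays were far apart on it, and array 1 was below the limit of 6.40. Mnt, which also pairs with Max, stood at 0.52 ± 0.23 (limma adjusted p = 0.346). Myc, known to activate Odc1 transcription and named here after its values were seen, had 7.96 and 8.45 in space flight and 8.75 and 8.59 in ground control, at −0.47 ± 0.35 (limma adjusted p = 0.585). Both flight values of Myc thus lay below both ground values.

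Genes that supply ornithine gave no common direction. Arginase 1 (Arg1), which forms ornithine from arginine, had 9.27 and 11.21 in space flight and 11.04 and 11.46 in ground control, so that flight array 1 alone was low, and its difference was −1.01 ± 0.50 (limma adjusted p = 0.397). Slc7a2, a carrier of arginine and other cationic amino acids, had 8.50 and 8.43 in space flight and 7.36 and 8.35 in ground control, at 0.61 ± 0.41 (limma adjusted p = 0.532), while its dimmer probe sets gave −0.43, −0.75 and 0.01. Azin2, the second antizyme inhibitor, stood at 0.07 ± 0.44.

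Salvage of methylthioadenosine, the by-product of Srm and Sms, was read from 6 measured genes together with S-adenosylmethionine supply. Of these, 5 had both flight values below both ground values and 0 passed the test, where 22.5% of measured genes lay below in this way. Mri1, an isomerase of the salvage route, had 7.48 and 7.18 in space flight and 8.20 and 8.38 in ground control, at −0.96 ± 0.38 (limma adjusted p = 0.289). Mtap, the phosphorylase that opens the route, stood at −0.55 ± 0.29 (limma adjusted p = 0.434), and its 3 dimmer probe sets gave −0.39, −0.34 and 0.03. All 5 measured transport genes had differences below 0 at their brightest probe set and 0 passed. The lysosomal polyamine exporter Atp13a2 stood at −0.49 ± 0.29 and Atp13a4 at −0.52 ± 0.38 (limma adjusted p = 0.486 and 0.585), but dimmer probe sets gave −1.06 and 1.41 for Atp13a2 and 0.20 for Atp13a4.

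**Figure D4:**
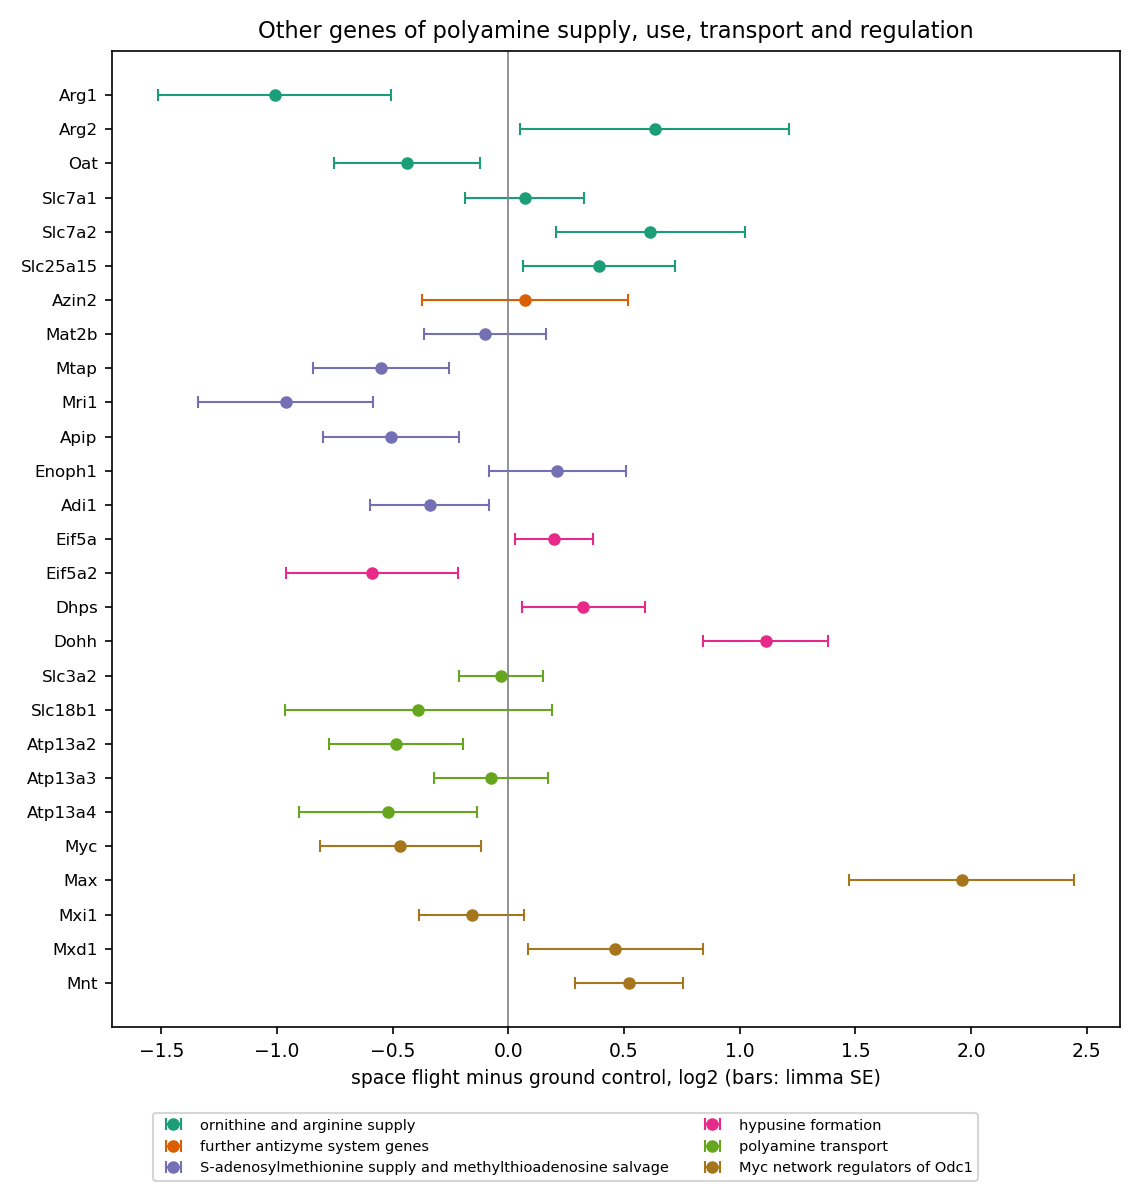
The 27 measured genes of polyamine supply, use, transport and regulation outside the members. Points are differences on the log2 scale, space flight minus ground control, with limma's SE, and colours mark the groups of genes. Max at 1.96 and Dohh at 1.11 lie farthest to the right, Arg1 at −1.01 and Mri1 at −0.96 farthest to the left, and none passed the test.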

How the data were processed

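Affymetrix mouse arrays measured RNA that had been amplified in 2 rounds, per the labels' protocols. The deposited values are linear intensities, 1 for each probe set on each array, made by the authors with GCOS, per the submitters' processing notes. Which version and summary method they used is not given in the sources used here. Trimmed by 2% at both ends, the deposited intensities of each array averaged 500.004.

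From these, log2(value + 16) was computed, and arrays, whose medians differed by up to 0.385, were brought to 1 distribution by quantile normalization, the 64 control probe sets left out (R 4.3.3). The added 16 shrinks fold changes of dim genes. Of the 45037 probe sets, 34945 had 1 gene symbol, 932 several and 9160 none in the annotation. A RefSeq table (GRCm38.p6) was used for names, and 34741 single symbols matched through gene identifiers with 0 changed. The groups were compared in limma 3.58.1 (lmFit, eBayes with intensity trend, two-sided, Benjamini-Hochberg, threshold 0.05), over all 45037 probe sets and over 11141 measured genes. Residual degrees of freedom were 2, and the smallest two-sided p of an exact permutation of 2 and 2 arrays is 0.333. The procedure was tested on simulated data with planted differences larger than that of any member, so the test does not cover differences of their size.

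The members, gene lists and marker lists were chosen with earlier results of these data known. Named genes were all members, the 2 measured genes with the largest moderated statistic in each pathway group, the 5 nearest profiles, and the brightest of each marker list. Dhps, Eif5a and Myc, and the other markers named, fall outside this rule and were named after their values were seen. One erythroid marker is not reported here. Other scalings, pseudocounts, filters, probe set summaries, a replicate block and leaving out each array were tried. The number of arrays limits the precision. Same-numbered arrays did not deviate together (r = 0.0271 over probe sets), and nothing in the labels pairs them. Promoter windows came from a RefSeq table and were searched in Python 3.11.15.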

Additional observations from a re-analysis of the deposited data

How the results depend on the processing

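The brightest Odc1 probe set stayed between 1.35 and 1.57 under every setting run, and 1.35 came with arrays shifted to 1 median, which moved the median of all probe sets to −0.11. Under that shift Srm, the brightest Oaz2 and the brightest Azin1 probe sets stood at −0.02, −0.11 and −0.10, below 0 and close to or above this median. The count of genes past the threshold was 7. It was 16 with values as deposited, 21 with cyclic loess, 12 with a pseudocount of 64, and 0 with a shift to 1 median, without the intensity trend, without the filter on dim genes and with the mean of a gene's probe sets. With 1 array left out it ran from 6 to 1058; the lone array is then assumed to vary like the other group. The count of probe sets was 0, and 4 with values as deposited, 7 with a pseudocount of 1 and 11 over only the probe sets at or above the median. The replicate block, though nothing pairs the arrays, gave 433 genes, 231 probe sets and 2 of the other pathway genes, Dohh and Max. That pathway count was otherwise 0 with all arrays. Calls of pathway genes with 1 array left out are not given, since a lone array then has no spread of its own. Sat1 stood at 0.72 without flight array 2 and at 0.06 without flight array 1. Oaz1 stood at 0.47, 0.26 and 0.31 with values as deposited, a shift to 1 median and cyclic loess. The cause of these moves was not tested. The smallest difference these arrays could detect was not measured.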
